A study of Mus musculus with 8 samples.

Results

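The 9 genes examined encode the enzymes that carry squalene synthesis through to cholesterol: Fdft1, Sqle, Lss, Cyp51, Msmo1, Nsdhl, Hsd17b7, Sc5d and Dhcr7. They were found by symbol among the 51789 Ensembl genes of the count table, each as 1 row, and all 9 passed the filter on low counts together with 17858 genes in all. The tissue was whole mammary gland of female C57BL/6 mice, taken 6 weeks after 1 injection of small extracellular vesicles (sEVs). Glands of the sEVHYP group (n = 2, labelled hypoxia exosomes) received sEVs shed in low oxygen by AT3, a line of mouse mammary adenocarcinoma cells that metastasizes, and those of the sEVNORM group (n = 3, labelled normoxia exosomes) received sEVs of the same cells kept in normoxia. Those of the sEVCTRL group (n = 3, labelled control) received material prepared in the same way from medium that no cells had conditioned. No engineered allele is given for these mice, each vesicle group rested on vesicles of a single cell line, and the comparisons ask how the vesicles of hypoxic cells changed the gland's transcripts. The labels give no litter or batch, so P values measure the spread between these libraries.

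Cholesterol is built from acetyl-CoA by way of mevalonate and farnesyl pyrophosphate, and Fdft1 makes the first step committed to sterols by joining farnesyl units into squalene. The steps that follow oxidize, cyclize and trim the molecule in the endoplasmic reticulum, and several of them (Sqle, Cyp51, Msmo1 and Sc5d) use molecular oxygen. In most cells the genes of this pathway are driven by SREBP-2, the product of Srebf2, which is released from its membrane anchor when sterols are low. Adipocytes and milk-producing epithelium of the mammary gland also make lipid through the related factor SREBP-1, the product of Srebf1.

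The promoters of Sc5d, Cyp51, Hsd17b7 and Nsdhl are shown because these genes had the largest log2 fold changes between sEVHYP and sEVNORM. The sequences come from RefSeq (GRCm38.p6), in which 7 of the 9 genes had an entry, with none for Fdft1 and Sqle. They run 5′ to 3′ toward the start site, and bases that any annotated exon covers were left out. The stretches are chr9:42264301-42264550 (minus strand, 250 bases), chr5:4104747-4104947 (minus strand, 201 bases), chr1:169969242-169969408 (minus strand, 167 bases) and chrX:72918412-72918520 (plus strand, 109 bases). Capitals mark matches, on either strand, to the GC box letters GGGCGG, the box named for its letters CCAAT, and the palindromic E-box letters CACGTG.
Sc5d: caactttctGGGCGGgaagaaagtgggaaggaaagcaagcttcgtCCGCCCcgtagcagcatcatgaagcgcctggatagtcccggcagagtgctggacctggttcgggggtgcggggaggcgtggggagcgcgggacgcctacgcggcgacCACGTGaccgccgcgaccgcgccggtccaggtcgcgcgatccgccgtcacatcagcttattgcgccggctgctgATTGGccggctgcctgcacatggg
Cyp51: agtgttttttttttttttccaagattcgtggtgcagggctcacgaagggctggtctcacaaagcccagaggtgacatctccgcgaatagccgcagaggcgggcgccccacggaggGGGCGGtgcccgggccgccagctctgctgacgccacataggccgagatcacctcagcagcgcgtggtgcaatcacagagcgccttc
Hsd17b7: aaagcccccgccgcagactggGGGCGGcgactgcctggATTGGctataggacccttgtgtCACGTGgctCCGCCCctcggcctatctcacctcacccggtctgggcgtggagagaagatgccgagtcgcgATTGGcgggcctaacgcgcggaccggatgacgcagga
Nsdhl: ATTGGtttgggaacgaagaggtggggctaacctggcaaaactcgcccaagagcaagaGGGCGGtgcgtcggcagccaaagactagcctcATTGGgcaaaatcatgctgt
In the 250 bases before the RefSeq start, a CCAAT box stood in 7 of the 9 windows of the 7 genes and in 33.9% of 32851 promoter windows, and a GC box in 8 of 9 and in 32.7%. The E-box stood in 3 of 9, before Hsd17b7, Sc5d and a start of Dhcr7, and in 6.02% of all windows. The sterol regulatory element was sought only as the letters TCACNCCAC, which were found in 0 of 9 and in 1.05% of all windows. Elements spelled otherwise would not have been counted. No 2 matches overlapped, and a match is a description of letters only.

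The first 3 steps make the ring. Fdft1 (squalene synthase, chr14:63145150-63179578) measured 29.9, 25.1 and 43.2 CPM (counts scaled to library size, here with TMM factors) in the sEVCTRL libraries, 24.2, 21.5 and 23.3 in sEVNORM, and 37.4 and 36.2 in sEVHYP. Both sEVHYP libraries stood above all sEVNORM libraries, while sEVCTRL replicate 3 was the highest of the 8. Sqle (squalene epoxidase, an oxygen-dependent and often rate-limiting step, chr15:59315077-59331192) measured 22.1, 13.8 and 16.9 CPM in sEVCTRL, 18.1, 17.9 and 15.5 in sEVNORM, and 33.9 and 23.1 in sEVHYP. The lower sEVHYP library stood just above the highest of the other 6, at 1.05 times its level. Lss (lanosterol synthase, which folds the epoxide into lanosterol, chr10:76531588-76557138) measured 16.6, 12.3 and 19.1 CPM in sEVCTRL, 19.1, 13.4 and 11.02 in sEVNORM, and 25.7 and 17.0 in sEVHYP. Its groups overlapped, with sEVHYP replicate 2 below a library of each other group.

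The middle steps strip methyl groups from lanosterol. Cyp51 (lanosterol demethylase, a cytochrome P450, chr5:4081145-4104746) measured 30.0, 16.4 and 22.7 CPM in sEVCTRL, 19.7, 23.4 and 18.4 in sEVNORM, and 48.8 and 33.1 in sEVHYP. Msmo1 (methylsterol monooxygenase, chr8:64718139-64733792) measured 40.1, 28.3 and 39.7 CPM in sEVCTRL, 29.6, 37.99 and 33.7 in sEVNORM, and 50.9 and 50.3 in sEVHYP. For both genes, each sEVHYP library was above all 6 libraries of the other groups. Nsdhl (the decarboxylating sterol dehydrogenase that follows Msmo1, chrX:72918557-72958514) measured 64.5, 35.7 and 57.4 CPM in sEVCTRL, 59.6, 54.8 and 48.8 in sEVNORM, and 113 and 79.3 in sEVHYP. Hsd17b7 (the ketosteroid reductase that closes each demethylation round, chr1:169949535-169969241) measured 13.2, 17.1 and 11.9 CPM in sEVCTRL, 11.8, 13.1 and 13.2 in sEVNORM, and 26.2 and 21.3 in sEVHYP. These genes too had both sEVHYP libraries above the other 6, and for Hsd17b7 the lower of them was 1.25 times the highest of the rest.

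The last steps set the double bonds. Sc5d (sterol desaturase, chr9:42251595-42264256) measured 166, 148 and 214 CPM in sEVCTRL, 122, 109 and 120 in sEVNORM, and 284 and 211 in sEVHYP. Its 3 groups stood almost in steps, with all sEVNORM libraries below all sEVCTRL libraries and sEVHYP replicate 2 just under sEVCTRL replicate 3. Fdft1 likewise had all sEVNORM libraries below all sEVCTRL libraries. Dhcr7 (7-dehydrocholesterol reductase, which makes cholesterol itself, chr7:143823145-143848410) measured 16.9, 12.5 and 16.7 CPM in sEVCTRL, 13.0, 14.6 and 13.2 in sEVNORM, and 25.9 and 16.4 in sEVHYP. For Dhcr7, sEVHYP replicate 1 was far above the rest, and replicate 2 lay within the sEVCTRL range.

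**Figure D1:**
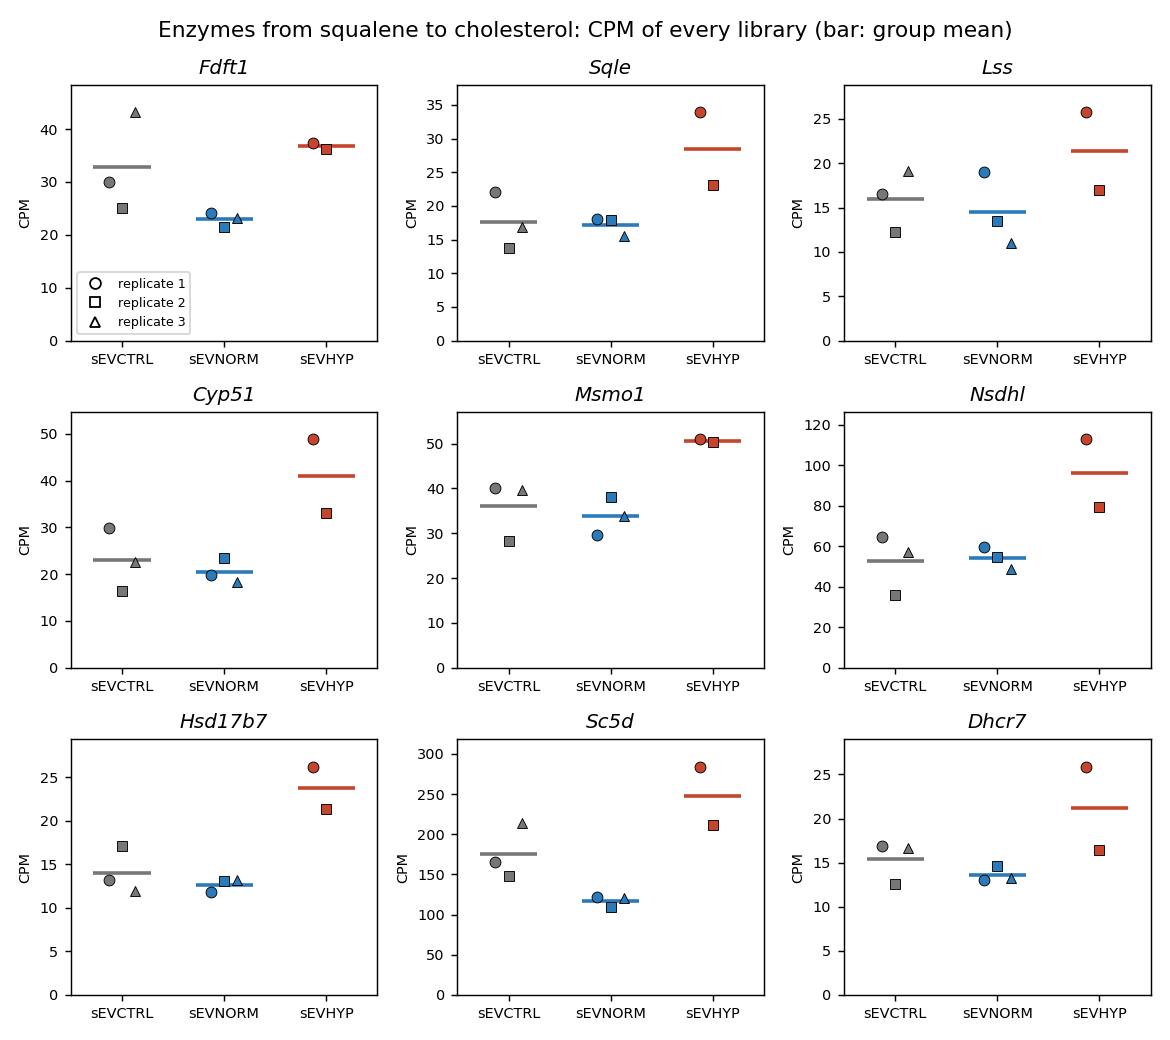
CPM (vertical axis, from 0) of each of the 9 enzymes in every library of the 3 groups (horizontal axis), with the replicate number as the point's shape and the group mean as a bar. In 8 of 9 panels both sEVHYP libraries lie above all 3 sEVNORM libraries, Lss being the exception.

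Per kilobase of the longest coding transcript, Sc5d was the most abundant transcript of the set, at 36.7 ± 7.09 CPM per kb in sEVCTRL (SD, n = 3), 24.5 ± 1.48 in sEVNORM (n = 3) and 51.7 ± 10.8 in sEVHYP (n = 2). Nsdhl followed at 24.2 ± 6.92, 25.1 ± 2.51 and 44.3 ± 10.9 CPM per kb, and in sEVNORM its level and that of Sc5d lay within their spread. Msmo1 was next at 17.6 ± 3.27, 16.5 ± 2.06 and 24.8 ± 0.201 CPM per kb. Lss and Hsd17b7 were the least abundant in sEVNORM, at 3.11 ± 0.885 and 2.75 ± 0.166 CPM per kb, and their levels lay within each other's spread. Fdft1, Sqle, Cyp51 and Dhcr7 lay between 4.83 and 6.22 CPM per kb in that group. The order below Sc5d and Nsdhl depended on the length used. Per kilobase of all exons of the gene together, Msmo1 stood at 5.87, 5.49 and 8.24 CPM per kb in sEVCTRL, sEVNORM and sEVHYP, against 7.74, 5.44 and 8.71 for Fdft1, and in sEVNORM Dhcr7, at 2.34, stood below Hsd17b7, at 2.48.

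Against sEVNORM, sEVHYP glands carried more transcript of nearly the whole route. Of the 9 enzymes, 8 were higher at an unadjusted P under 0.05, the threshold that the study uses, by edgeR's quasi-likelihood test, beside 2.25% of all genes tested. The median log2 fold change of the 9 was 0.73, and over all genes tested it was -0.02. The largest was that of Sc5d, 1.08 ± 0.20 (SE) or 2.12-fold (unadjusted P = 0.000420). Cyp51 followed with 1.00 ± 0.27 (unadjusted P = 0.00486) and Hsd17b7 with 0.91 ± 0.21 (unadjusted P = 0.00165). Nsdhl rose by 0.82 ± 0.26 (unadjusted P = 0.0106), Sqle by 0.73 ± 0.24 (unadjusted P = 0.0143) and Fdft1 by 0.68 ± 0.22 (unadjusted P = 0.0138). Dhcr7 rose by 0.64 ± 0.23 (unadjusted P = 0.0231) and Msmo1 by 0.58 ± 0.19 (unadjusted P = 0.0144). The gene that did not pass was Lss, at 0.56 ± 0.29 (unadjusted P = 0.0899, 95% confidence interval -0.11 to 1.23).

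For 8 of the 9 enzymes all sEVHYP libraries stood above all sEVNORM libraries, as did 12.3% of all genes tested. After Benjamini-Hochberg adjustment over all genes no enzyme passed 0.05 in edgeR (lowest adjusted P = 0.956, for Sc5d), nor did any gene tested (0%). With DESeq2 fitted to these 2 groups alone, 5 enzymes passed an adjusted P of 0.05 and were higher, beside 0.313% of the genes it gave an adjusted P. They were Sc5d (adjusted P = 0.000148), Hsd17b7 (0.00827), Cyp51 (0.0191), Fdft1 (0.0203) and Nsdhl (0.0402). With DESeq2 fitted to all 8 libraries 1 enzyme passed, Sc5d (adjusted P = 0.0115), among 16 genes in either direction. One library carried much of the call. Without sEVHYP replicate 1 the number called in edgeR fell from 8 to 2 (Hsd17b7 and Sc5d) with a median log2 fold change of 0.58, and the remaining sEVHYP library was then assumed to vary like the other groups.

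Against sEVCTRL the difference was smaller. In edgeR 6 of the 9 enzymes were higher at an unadjusted P under 0.05, beside 1.39% of all genes tested, and the median log2 fold change was 0.50 (all genes, -0.02). Nsdhl rose by 0.87 ± 0.26 (unadjusted P = 0.00775), Cyp51 by 0.83 ± 0.27 (unadjusted P = 0.0130) and Hsd17b7 by 0.76 ± 0.21 (unadjusted P = 0.00499). Sqle rose by 0.70 ± 0.24 (unadjusted P = 0.0184), Sc5d by 0.50 ± 0.20 (unadjusted P = 0.0355) and Msmo1 by 0.49 ± 0.19 (unadjusted P = 0.0321). Dhcr7, at 0.46 ± 0.23 (unadjusted P = 0.0802), Lss, at 0.42 ± 0.30 (unadjusted P = 0.186), and Fdft1, at 0.17 ± 0.22 (unadjusted P = 0.468, 95% confidence interval -0.34 to 0.68), did not pass.

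Sqle, Cyp51, Msmo1, Nsdhl and Hsd17b7 had both sEVHYP libraries above all sEVCTRL libraries, 5 of 9 beside 6.7% of all genes tested. No enzyme (lowest adjusted P = 1.00) and no other gene (0%) passed an adjusted P of 0.05 in edgeR. With DESeq2 on these 2 groups, 0 of the 9 passed an adjusted P of 0.05 beside 0.0233% of genes, and 4 of the 9 passed an unadjusted P of 0.05, as did 387 of 25790 genes in either direction. Without sEVHYP replicate 1, 0 of the 9 were called in edgeR, with a median log2 fold change of 0.40. This comparison uses the same 2 sEVHYP libraries as the one with sEVNORM, so the one does not repeat the other.

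Between sEVNORM and sEVCTRL few of the enzymes passed the test. None of the 9 enzymes was higher in sEVNORM than in sEVCTRL (0.89% of all genes were), and 2 were lower (0.734% of all genes were) by edgeR at an unadjusted P under 0.05. Sc5d fell by 0.59 ± 0.18 on the log2 scale (unadjusted P = 0.0105) and Fdft1 fell by 0.51 ± 0.20 (unadjusted P = 0.0328), and for each of them all sEVNORM libraries lay below all sEVCTRL libraries, as for 2.17% of all genes tested. The median log2 fold change of the 9 was -0.15 (all genes, 0.00), with the other 7 between -0.18 and 0.05. No gene passed an adjusted P of 0.05 in edgeR (0%). The call of Fdft1 was lost without sEVCTRL replicate 3 (log2 fold change -0.26) and without any one of the 3 sEVNORM libraries, while that of Sc5d remained.

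**Figure D2:**
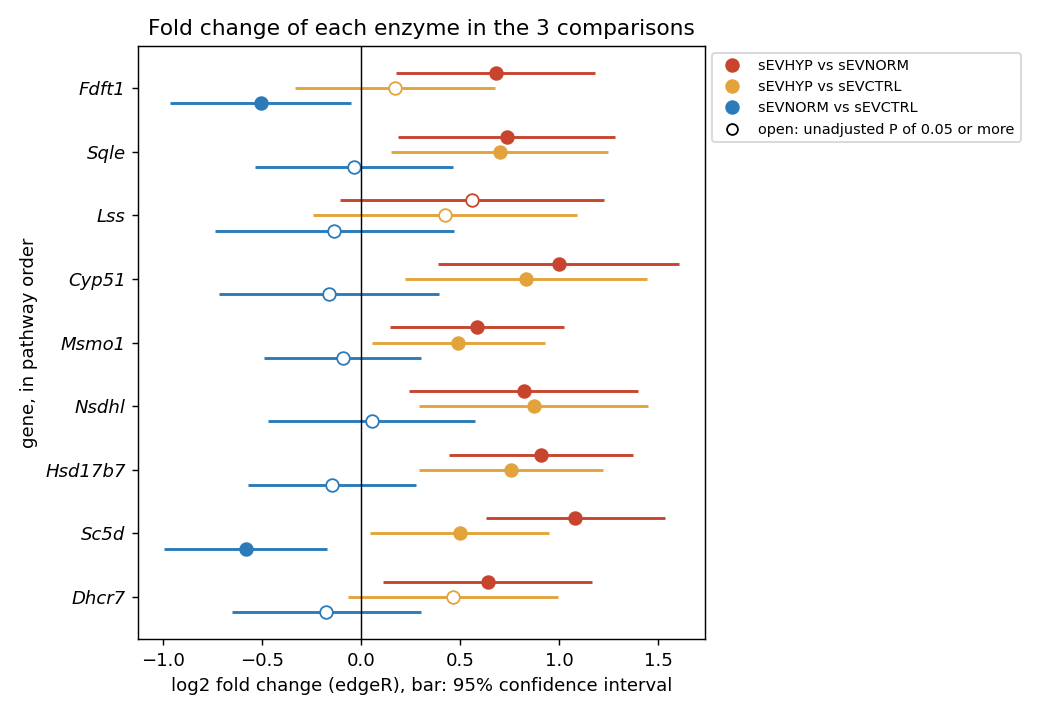
Log2 fold change (horizontal axis) of each enzyme in pathway order (vertical axis) in the 3 comparisons, with 95% confidence intervals from edgeR and filled points for an unadjusted P under 0.05. All 9 points of sEVHYP against sEVNORM lie between 0.56 and 1.08, and Sc5d and Fdft1 are the filled points left of 0.

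The enzymes varied together over the 8 libraries taken as a whole, but not to the same extent, and not all of them did so within groups. sEVHYP replicate 1 exceeded replicate 2 for 9 of 9 enzymes, by a ratio from 1.01 for Msmo1 and 1.03 for Fdft1 to 1.51 for Lss and 1.58 for Dhcr7. It was the highest of all 8 libraries for 8 enzymes, and sEVCTRL replicate 2 was the lowest for 5. Across the 8 libraries the correlation of log2 CPM between pairs of enzymes ranged from 0.41 to 0.98 (Pearson r, 36 pairs, median 0.75), a description in which all pairs share libraries and depth. After each group's mean was taken away, 28 of the 36 were positive, and the closest pair was Sqle with Cyp51 (r = 0.96). Hsd17b7 ran against the other 8 within groups, from -0.76 with Fdft1 to -0.06 with Dhcr7. It was high in sEVCTRL replicate 2, the library in which most of the others were lowest.

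**Figure D3:**
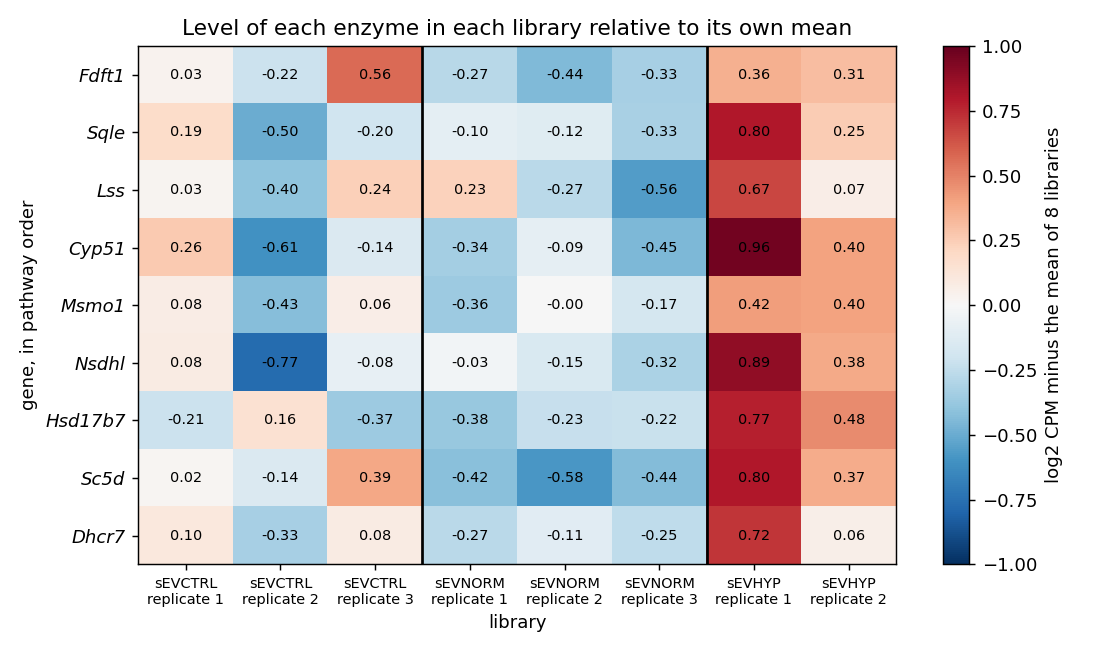
Log2 CPM of each enzyme (vertical axis, pathway order) in each library (horizontal axis) minus the enzyme's mean over the 8 libraries, printed in each cell and drawn from blue (lower) to red (higher). sEVHYP replicate 1 ranges from 0.36 for Fdft1 to 0.96 for Cyp51, and sEVHYP replicate 2 from 0.06 for Dhcr7 to 0.48 for Hsd17b7.

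The other sterol enzymes, which act between the same intermediates, were also measured, and none of the 5 passed in any comparison (edgeR). Of all 17858 genes, 706 passed in either direction between sEVHYP and sEVNORM, 438 between sEVHYP and sEVCTRL and 290 between sEVNORM and sEVCTRL. A count of 0 of 5 is near these shares. Between sEVHYP and sEVNORM, Tm7sf2, a sterol reductase of the ring, had a log2 fold change of 0.32 ± 0.39, Erg28, a scaffold of the demethylation complex, 0.20 ± 0.21, Ebp, the sterol isomerase, 0.15 ± 0.19, and Lbr, a lamin receptor with sterol reductase activity, -0.14 ± 0.27. Whether they differed from the 9 enzymes was not tested.

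Upstream, from acetyl-CoA to farnesyl pyrophosphate, 2 of 9 genes passed as higher between sEVHYP and sEVNORM, beside 2.25% of all genes tested, and all 9 had a fitted value above 0, beside 47.0% (median 0.73, over all genes -0.02). Hmgcs1, which makes HMG-CoA, measured 43.8, 57.2 and 43.0 CPM in sEVNORM against 92.6 and 90.5 in sEVHYP, a log2 fold change of 0.93 ± 0.17 (edgeR, unadjusted P = 0.000309). Idi1, the isopentenyl isomerase, went from 69.3, 80.8 and 71.4 CPM to 140.2 and 118, a change of 0.81 ± 0.19 (unadjusted P = 0.00247). Fdps, which makes the substrate of Fdft1, had 0.80 ± 0.37 (unadjusted P = 0.0564) and Acat2, the thiolase, 0.73 ± 0.34 (unadjusted P = 0.0623). Against sEVCTRL the same 2 of 9 genes passed, beside 1.39% of all genes, Hmgcs1 at 0.61 ± 0.17 and Idi1 at 0.72 ± 0.19.

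Of 10 genes of SREBP regulation and its targets, 9 were tested and 3 were higher in sEVHYP than in sEVNORM, beside 2.25% of all genes. Insig1, which holds the SREBP complex in the endoplasmic reticulum, rose by 1.05 ± 0.35 on the log2 scale (edgeR, unadjusted P = 0.0147), and Srebf1 by 0.76 ± 0.22 (unadjusted P = 0.00670). Mbtps1, a protease that frees SREBP, had -0.18 ± 0.15 (unadjusted P = 0.248). The transcript of Srebf2, named after its values were seen, had 0.07 ± 0.26 (unadjusted P = 0.807). Against sEVCTRL 3 of 9 passed, beside 1.39% of all genes, among them Insig1 at 0.82 ± 0.35 and Srebf1 at 0.70 ± 0.22. None of the 9 passed between sEVNORM and sEVCTRL, where 290 of 17858 genes did in either direction.

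Of the 4 electron donors that serve the oxygen-dependent steps, 1 was higher in sEVHYP than in sEVNORM, beside 2.25% of all genes. Cyb5b, a cytochrome b5, rose by 0.51 ± 0.17 (edgeR, unadjusted P = 0.0154). Cyb5r3, the reductase of cytochrome b5, had 0.22 ± 0.23, Cyb5a 0.03 ± 0.25 and Por, the reductase that serves Sqle and Cyp51, -0.04 ± 0.29. Of 8 genes of fatty acid synthesis 2 passed as higher, beside the same 2.25%, with a list median of 1.01 (all genes, -0.02). Scd2, a fatty acid desaturase, rose by 1.07 ± 0.34 (unadjusted P = 0.0117), and Acly, which makes cytosolic acetyl-CoA, by 1.56 ± 0.62 (unadjusted P = 0.0325). Acly rested on sEVHYP replicate 1, at 1554 CPM against 363 in replicate 2. Thrsp, a lipogenic protein, had 0.95 ± 0.48 (unadjusted P = 0.0774), and Me1, a source of NADPH, 1.10 ± 0.57 (unadjusted P = 0.0868). The lower sEVHYP library lay within the sEVNORM range for Thrsp (736 CPM, range 337 to 750) and Me1 (682 CPM, range 530 to 927). Only 1 of the 8 genes, Scd2, had both sEVHYP libraries above all sEVNORM libraries, beside 12.3% of all genes tested. The list median thus leaned on the higher sEVHYP library. Of 6 genes of the sterol sensor LXR and cholesterol efflux, none passed (median -0.09), where 706 of 17858 genes did in either direction. Apoe had -0.28 ± 0.23, Nr1h2 -0.13 ± 0.23, Abcg1 -0.09 ± 0.22 and Abca1 -0.08 ± 0.23.

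**Figure D4:**
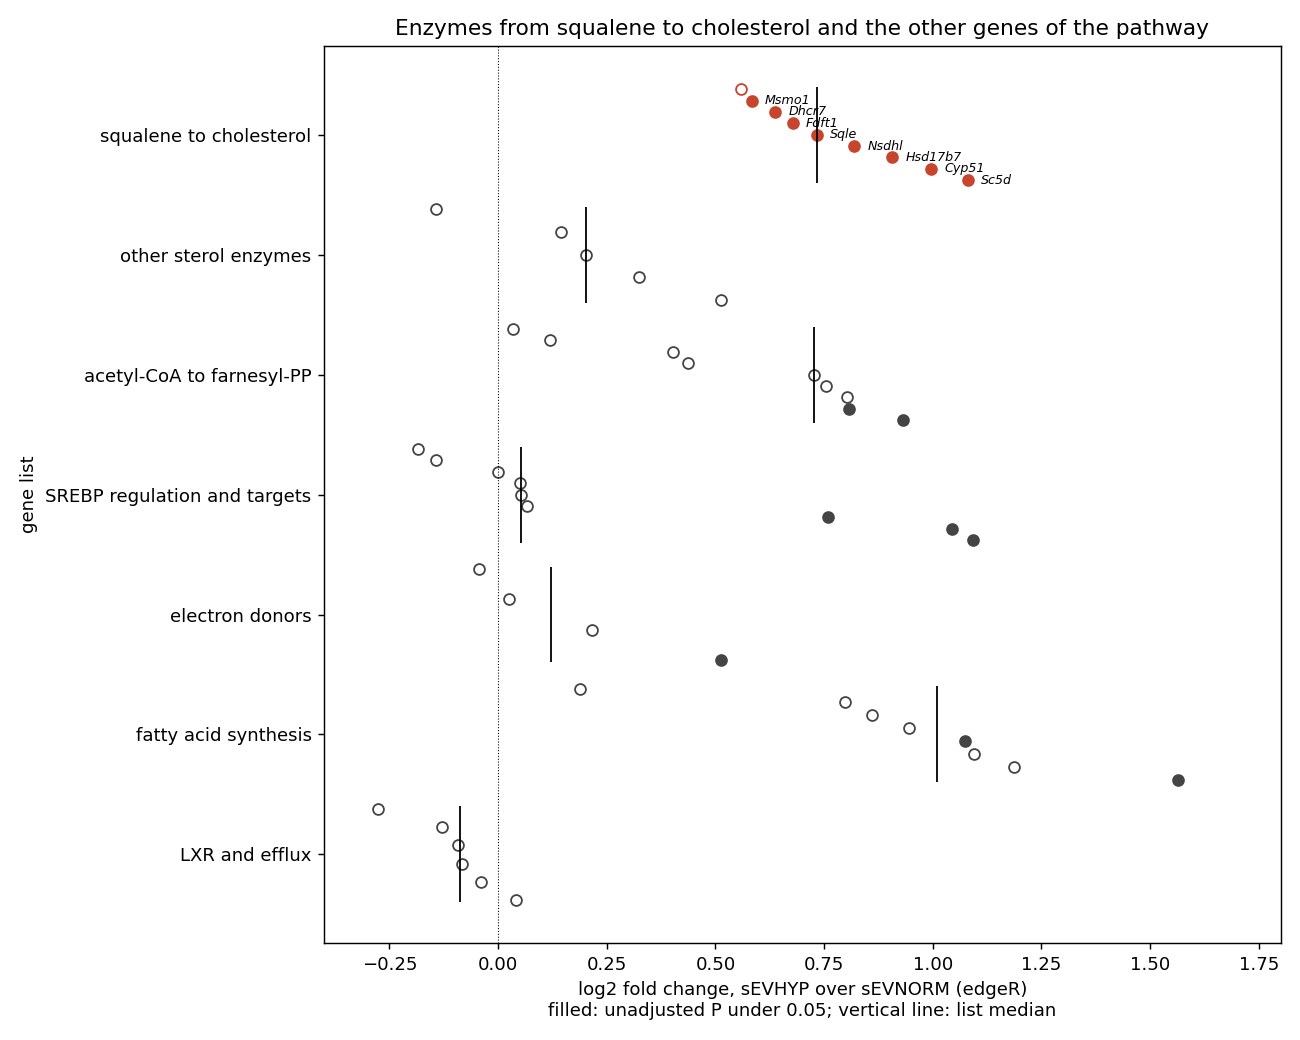
Log2 fold change of sEVHYP over sEVNORM (horizontal axis) for the 9 enzymes and the 6 other gene lists (vertical axis), filled where the unadjusted edgeR P is under 0.05, with each list's median as a vertical line. The list medians run from -0.09 for LXR and efflux to 1.01 for fatty acid synthesis, with the 9 enzymes at 0.73. Both sEVHYP libraries lay above all sEVNORM libraries for 1 of 8 fatty acid synthesis genes and 8 of the 9 enzymes.

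The genes whose levels followed the enzymes most closely were found by the correlation of log2 CPM with the mean of the 9 enzymes' z-scores over the 8 libraries, among 12197 genes with a mean log2 CPM of at least 2. Among the first 10 outside the set were Mid1ip1 (Pearson r = 0.97), Gpd2 (0.96), Tecr (0.96), Gtf3c4 (0.96), D5Ertd579e (0.95), Cdkn2b (0.94), Ptger3 (0.94), Dhrs7 (0.94) and Pth1r (0.94). Mid1ip1, a partner of acetyl-CoA carboxylase, measured 18.7, 11.5 and 16.5 CPM in sEVCTRL, 15.0, 12.2 and 12.4 in sEVNORM and 37.2 and 19.5 in sEVHYP. Tecr, an enoyl reductase of very long chain fatty acids, measured 83.7, 67.3 and 100.2 CPM in sEVCTRL, 73.2, 71.8 and 74.9 in sEVNORM and 129 and 96.3 in sEVHYP. These values are a description, since all genes share the 8 libraries. Insig1 ranked 19th (r = 0.91).

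Total counts were 18194996 to 24622569 per library, and the 9 enzymes took 0.0302% to 0.0646% of them, or 6288 to 14097 counts. In whole tissue, fewer cells of a type and less RNA per cell cannot be told apart. Markers of luminal epithelium were present in every library (summed level 895 to 1752 CPM in sEVCTRL, 1371 to 1601 in sEVNORM, 1505 to 1993 in sEVHYP), as were those of white adipocytes (6142 to 10105, 5250 to 8290 and 5574 to 9038 CPM). The summed level of 12 skeletal muscle markers was 706 to 8813 CPM in sEVCTRL, 11.2 to 3106 in sEVNORM and 4772 to 13200.4 in sEVHYP. For 10 of the 12 both sEVHYP libraries stood above all sEVNORM libraries, beside 12.3% of all genes. In edgeR 0 of 12 were called between these groups, beside 706 of 17858 genes in either direction, and Myh2 was at a count of 0 in sEVNORM replicate 2. With the muscle level as a covariate 8 of the 9 enzymes were called against sEVNORM and 7 against sEVCTRL, while over all 17858 genes the calls in either direction went from 706 to 796 and from 438 to 576. The 6 brown adipocyte markers summed to 27.5 to 39.1 CPM in sEVCTRL, 23.1 to 36.2 in sEVNORM and 40.4 to 70.0 in sEVHYP, with Ucp1 and Elovl3 at a count of 0 in 2 sEVCTRL libraries. The 8 basal epithelium markers summed to 310 to 481, 321 to 424 and 500.2 to 508 CPM, the keratins Krt5 and Krt14 among them at 6.65 to 13.8 and 3.86 to 7.85 CPM over all libraries. Acta2 gave the largest part of that sum, at 188 to 275, 162 to 264 and 299 to 315 CPM. Between sEVHYP and sEVNORM 4 of the 8 were fitted higher and 4 lower (median log2 fold change 0.02). The 7 Schwann cell and nerve markers summed to 464 to 583, 310 to 518 and 528 to 533 CPM, of which Pmp22 gave the largest part (285 to 390, 176 to 321 and 350 to 361). In sEVHYP 6 of the 7 were fitted higher than in sEVNORM and 6 lower than in sEVCTRL. In the other direction, the 6 B cell markers summed to 1844 to 5196, 2553 to 4779 and 1430 to 2393 CPM and the 7 macrophage markers to 1467 to 1706, 1704 to 1716 and 1171 to 1638 CPM. None of the tested brown adipocyte, basal, nerve, B cell or macrophage markers was called between sEVHYP and sEVNORM (edgeR), where 706 of 17858 genes were. Against sEVCTRL 2 brown adipocyte markers were called higher in edgeR, beside 1.39% of all genes. They were Ucp1 at 5.47 ± 1.75 (unadjusted P = 0.0121) and Dio2 at 2.64 ± 0.75 (unadjusted P = 0.00631). Ucp1 measured 0.32 and 6.16 CPM in sEVHYP, against 0 to 0.20 in sEVCTRL and 0.040 to 2.04 in sEVNORM. Its value thus rested mostly on 1 sEVHYP library. Dio2 measured 3.89 and 15.95 CPM in sEVHYP, against 1.37 to 1.73 and 0.93 to 6.47. The basal marker Oxtr was also called against sEVCTRL, at 0.76 ± 0.28 (unadjusted P = 0.0247), and no marker of the nerve, B cell and macrophage lists was. The part of brown adipocytes, basal epithelium, nerve, B cells and macrophages in the result was not tested.

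Some rows share sequence with other genes, and whether counting used strand is not given in the sources used here. Fdft1 overlaps Ctsb, a lysosomal protease gene, by 774 bases on opposite strands. Ctsb stood at 992 to 1317 CPM in the 8 libraries, with a log2 fold change between sEVHYP and sEVNORM of -0.08 ± 0.20 (edgeR, unadjusted P = 0.708). Cyp51 overlaps Akap9, a scaffold protein gene, by 166 bases, and Akap9 had 0.16 ± 0.15 (unadjusted P = 0.312). The antisense gene 4930483K19Rik, which overlaps Lss by 11268 bases, had a count of 0 in all libraries. Fdft1 has a processed pseudogene, Gm6781, with 97.4% identity over 1249 bases and 8 counts in all libraries together. Transcripts of Dhcr7 and Msmo1 hold stretches of 200 to 227 bases that match other genes at 95% identity or more, so the counts of these 2 genes are less certain. The same holds for Fdft1 if strand was not used, since it stood at 21.5 to 43.2 CPM, far below Ctsb.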

How the data were processed

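Polyadenylated RNA of 8 mammary glands was sequenced (3 sEVCTRL, 3 sEVNORM, 2 sEVHYP). Groups were taken from the treatment label of each sample. The authors aligned the reads to mm10 (GRCm38) with STAR and estimated read counts for Ensembl release 89 genes with RSEM 1.2.12, and the values they deposited are raw counts in whole numbers. Symbols, positions and lengths came from GENCODE M21 (51596 of 51789 genes; 0.0389% of counts had no symbol).

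edgeR 4.0.16 (R 4.3.3) was used for a two-sided quasi-likelihood test after TMM scaling (factors 0.975 to 1.02) of the genes that filterByExpr kept at min.count 10, in 1 model of the 3 groups, with 5 residual and 4.08 prior degrees of freedom, and P values were adjusted by Benjamini-Hochberg over 17858 genes. Log2 CPM used a prior count of 2. DESeq2 1.42.0 was run on the 2 groups compared and on all 8 libraries. Other alternatives were DESeq2 size factors, edgeR on 2 groups, no filter, a floor of 10 counts in each library, blocking on replicate number, mean log2 CPM of muscle, luminal or white adipocyte markers as a covariate, and each library left out. Copies were searched with blastn 2.17.0+ (at least 95% identity over 200 bases). The procedure was tested on simulated data. Pairs of libraries within groups differed by more than sampling noise (chi-square per degree of freedom 27.7 to 104).

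The 9 enzymes, the lists, the promoter motifs and the tests were chosen with earlier results of these data known. Besides the 9 enzymes, all other sterol enzymes and, of each further list, up to 4 genes with the smallest P between sEVHYP and sEVNORM are named, together with the 10 genes of highest correlation, except for items that are not reported here. Srebf2 was added after its values were seen.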

Additional observations from a re-analysis of the deposited data

How the results depend on the processing

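For sEVHYP against sEVNORM, all 9 enzymes kept a fitted value above 0 under each of the 18 alternatives, and 8 were called under the 10 alternatives that keep every library. With each library left out in turn, the number called ranged from 2 to 8 and the median log2 fold change from 0.58 to 0.98. For sEVHYP against sEVCTRL these ranges were 0 to 7 and 0.39 to 0.74, and 4 to 7 were called under the other alternatives. The lows in the number called came without sEVHYP replicate 1 and the highs of the median without replicate 2. For sEVNORM against sEVCTRL they were 1 to 2 and -0.30 to -0.09, and 1 was called with the white adipocyte covariate, where Fdft1 was lost. The cause was not tested.

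Signs turned only for genes not called between sEVNORM and sEVCTRL. Log2 fold changes were 0.15 for Sqle, 0.074 for Cyp51 and 0.00040 for Msmo1 with the luminal covariate, and -0.017 for Nsdhl with the muscle covariate. Leaving out single libraries gave ranges of -0.19 to 0.14 for Sqle, -0.38 to 0.026 for Lss, -0.36 to 0.046 for Cyp51, -0.16 to 0.20 for Nsdhl and -0.26 to 0.015 for Hsd17b7.

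Same-numbered libraries of different groups had an r of deviations of -0.42 to 0.37 over 7 pairs, and differently numbered ones -0.37 to 0.47 over 14. With 2 or 3 libraries per group the deviations within a group are tied to each other. These values therefore cannot decide whether the replicate numbers pair the samples. With the replicate block 8, 5 and 2 enzymes were called in the 3 comparisons, and the medians were 0.79, 0.58 and -0.14.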
